A study of Capra hircus with 198 samples.

Results

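The interferon-stimulated genes MX1, MX2, ISG15, RSAD2, IFIT2, IFIH1, DDX58, IRF7 and IFI6 were followed through 33 goat tissues. They were taken by name from the count table, and all 9 of the 9 names were among its 39734 features. The study sequenced total RNA from 33 tissues of the same 6 adult female Murciano-Granadina goats, with 1 library per goat and tissue. By their labels, 3 animals (goats 2, 3 and 6) were in lactation and 3 (goats 54, 64 and 73) were dry, and no label names a treatment, a genotype or the health of an animal. Lactation state cannot be told apart from anything else in which these 3 goats differed from the other 3.

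Interferons are secreted when a cell senses viral or other foreign nucleic acid, and they act through a receptor, JAK kinases and STAT and IRF transcription factors on a large set of target genes. DDX58 (RIG-I) and IFIH1 (MDA5) sense RNA in the cytosol, and IRF7 is the transcription factor that carries the signal on to interferon genes. MX1 and MX2 are dynamin-like GTPases, RSAD2 (viperin) makes a chain-terminating nucleotide, IFIT2 binds RNA and slows translation, ISG15 is a ubiquitin-like protein tag, and IFI6 is a small membrane protein. Tissues hold a low resting level of such genes also without infection, and barrier and immune organs are known for a higher level.

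Depth lay between 1.31 and 8.97 M counts per library, and the median library had 4.50 M in lactating and 4.80 M in dry goats. Values are counts scaled to the library total (CPM). A count of 0 allows up to 3 counts, or 0.648 CPM in a library of median depth, and this floor covers counting error only. CPM is not divided by gene length, so levels are compared between tissues and goats and not between genes. By its expression profile, 174 libraries were closest to their own tissue and 24 to another, among them all pineal libraries of the lactating goats, the esophagus of goats 3 and 6, and the abomasum of goat 2, which was closest to duodenum. The duodenum of goat 2 was closest to abomasum. In such bulk samples, fewer cells of a type and less RNA per cell cannot be told apart.

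IFIT2 was counted in every library and had at least 10 counts in 179. IFI6 reached 10 counts in 146 libraries, MX1 in 119, MX2 in 116, IRF7 in 98, DDX58 in 80 and IFIH1 in 74. RSAD2 was at 0 in 55 libraries and reached 10 counts in 28, while ISG15 was at 0 in 118 libraries and reached 10 counts in 10. MX1 and MX2 are next to each other in the RefSeq annotation, and MX2 had fractional counts in 193 libraries where the other 8 genes had whole ones, so the MX2 values are less certain. DDX58 holds an annotated intronic lncRNA feature, DDX58-IT1, and no source used here says whether reads were assigned by strand. By tissue mean DDX58-IT1 ran from 1.37 CPM in the left ventricle to 8.23 CPM in the cerebellar hemisphere, and its part in the DDX58 values was not tested.

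The lung held the highest level of most of these genes. MX1 in lung was at 32.4, 31.6 and 34.1 CPM in lactating goats 2, 3 and 6 and at 52.6, 22.3 and 29.8 CPM in dry goats 54, 64 and 73. All lung libraries were above the mean of the next tissue, the 14.3 ± 5.49 CPM of the mandibular lymph node (SD, n = 6 goats here and for the tissue means that follow). Lung also led for IFI6 (41.7 ± 14.3 CPM), MX2 (15.7 ± 3.94), IFIH1 (6.96 ± 3.01), DDX58 (6.88 ± 2.29) and RSAD2 (5.09 ± 2.60). Against the mean of the other 32 tissues, 8 of the 9 genes were higher in lung, where 14.4% of all tested features were higher. In edgeR's quasi-likelihood test with Benjamini-Hochberg adjustment, used for all comparisons within and between tissues below, MX1 had a log2 fold change of 3.0 (SE 0.32, adjusted p = 1.14e-15) and IFIT2, with the smallest of the 8, one of 1.11 (SE 0.24, adjusted p = 0.000105). All 8 stayed past the threshold of 0.05 when any single goat was left out, although ISG15 rested on 0.470 to 3.64 CPM. IRF7 was the exception, at 2.78 CPM in lung with a log2 fold change of -0.06 (adjusted p = 1). Its single call was in adrenal cortex, where it was lower at 0.565 CPM (-1.91, SE 0.65, adjusted p = 0.0162) and not past the threshold without goat 3 or goat 54 (highest adjusted p 0.0692).

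Over all tissues, 52 of 297 gene and tissue pairs were higher than the mean of the other tissues and 20 were lower, where 16.7% and 9.14% of all features were. The spleen and the mandibular lymph node, organs that filter blood and lymph, had 6 genes higher each, where 15.7% and 19.6% of all features were. DDX58 in spleen, and DDX58 and RSAD2 in the lymph node, were lost when some goats were left out, goat 54 among them in both tissues. IFIT2 peaked in the spleen at 18.1 ± 3.31 CPM (log2 fold change 1.55, SE 0.23, adjusted p = 3.47e-09), ahead of lung at 14.6 ± 3.36 CPM. In liver 5 genes were higher, where 18.6% of all features were, led by IFI6. With IFI6, DDX58 held without any single goat (1.83, SE 0.37, adjusted p = 1.70e-05), and IFIH1, ISG15 and RSAD2 did not (lost without goats 2 and 3, without goat 54, and without goats 54 and 73). IFI6 in the 6 liver libraries lay between 21.8 and 50.6 CPM (log2 fold change 2.88, SE 0.27, adjusted p = 1.14e-19), while MX1 in liver averaged 4.22 CPM and did not pass (adjusted p = 0.640).

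Low levels differed from gene to gene. In the cerebellar hemisphere 4 genes were lower, where 15.6% of all features were. There MX1 averaged 0.734 CPM (log2 fold change -2.65, adjusted p = 0.000280), IFIH1 0.161 CPM (-3.54, adjusted p = 8.05e-05) and IFI6 was also lower (-1.72, adjusted p = 0.00151), all 3 without any single goat too. DDX58 (-1.32, adjusted p = 0.0451) was lost without any goat but goat 6. MX2 in the same libraries averaged 6.95 ± 1.64 CPM and was higher than in the other tissues (0.97, adjusted p = 0.0208; not called without goat 2 or goat 3). The diaphragm and the left ventricle had the lowest MX2, at 0.378 and 0.375 CPM, and both were called lower. Over the 9 genes the diaphragm had 2 lower and the left ventricle 1, near the 13.3% and 12.5% of all features. Masseter muscle had none lower and DDX58 higher (1.20, SE 0.41, adjusted p = 0.0152), a call lost without goat 2. There 19.5% of all features were higher and 15.9% lower. In the rhinencephalon IFI6 and MX2 were higher (both 0.93, adjusted p = 0.0272 and 0.0359) and none lower, where 19.0% and 9.41% of all features were. For 9 genes, the counts of calls in both tissues are near these shares. The rhinencephalon calls were lost without goat 2 or 73 for IFI6 and without goat 2, 3 or 64 for MX2. MX1 was lower in reticulum (0.874 CPM, log2 fold change -1.92, adjusted p = 0.00825), and in omasum and rumen, where the calls were lost without most single goats. Neighbours in the order of tissues mostly could not be separated: a tissue exceeded the next by more than the larger of their SDs once for MX1 and once for MX2, in each case lung, and for IFIT2 in spleen and lung, but nowhere for the other 6 genes. The authors' deposited table gives a tau, which runs from 0 for even to 1 for tissue-restricted expression. It was 0.343 for IFIT2, 0.364 for IRF7 and 0.898 for ISG15, with a median of 0.498 over all features. The ISG15 tau comes from low values: the gene was at 0 in 118 libraries, and its highest tissue mean was 1.69 CPM in duodenum.

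**Figure D1:**
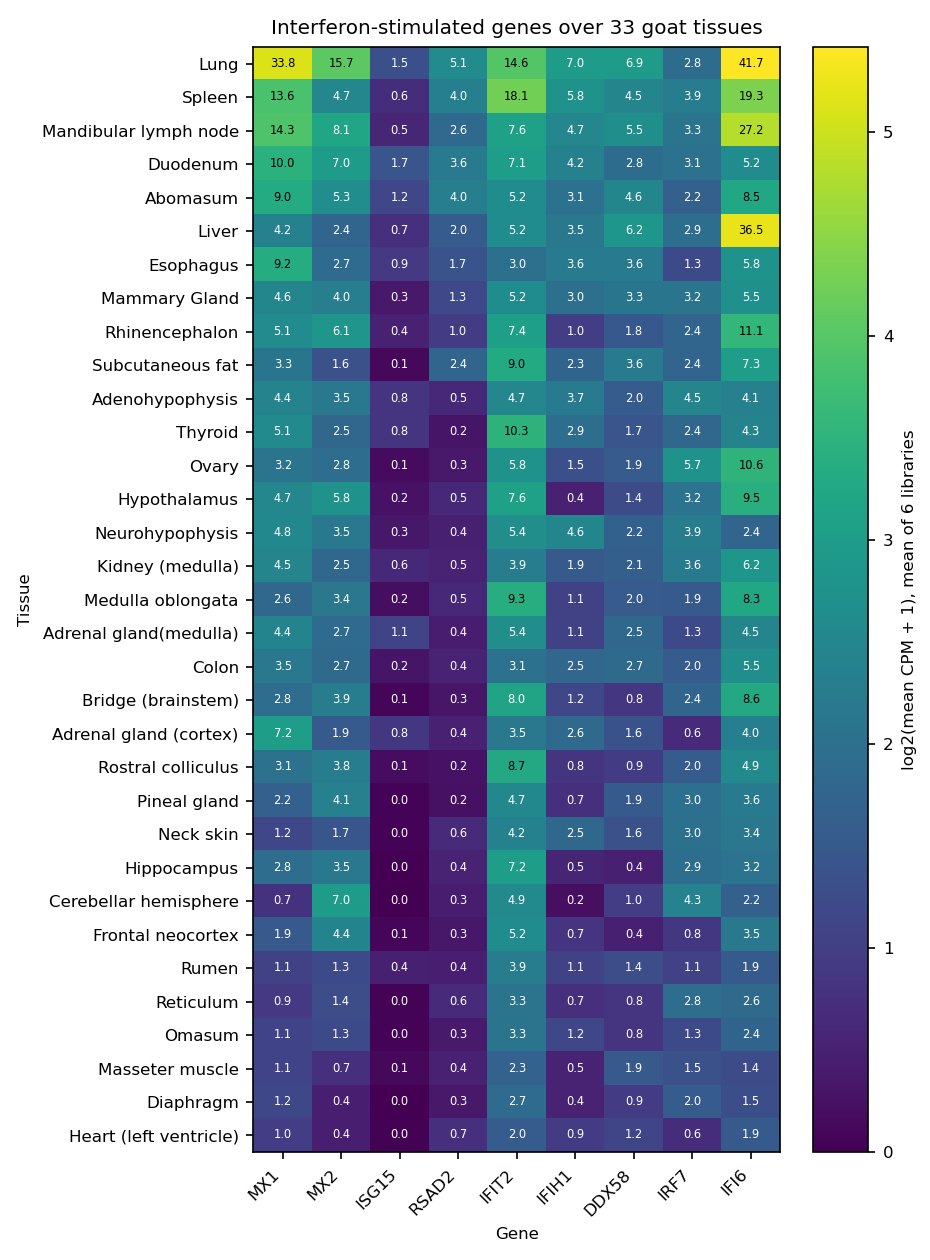
Mean CPM of each gene (columns) in each of 33 tissues (rows, ordered by the mean over genes), printed in the cells and coloured as log2(mean CPM + 1), n = 6 libraries per tissue. Lung stands at the top with 33.8 CPM for MX1 and 41.7 CPM for IFI6, and colours compare tissues within a column, since CPM is not divided by gene length.

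In the abomasum, duodenum and esophagus 1 library was the highest for most of the genes. RSAD2 in abomasum was at 19.7 CPM (78 counts) in lactating goat 6, against 1.14 and 0.692 CPM in the other lactating goats and 0.745, 0.729 and 0.816 CPM in the dry goats. Goat 6 was the highest of the 6 abomasum libraries for 7 of the 9 genes, with MX1 at 33.6 CPM against 0.272 to 8.19 in the other 5 and DDX58 at 15.7 CPM against 0.972 to 4.97. In the duodenum the same goat was highest for 8 of the 9 genes, with ISG15 at 6.63 CPM against 0 to 1.54. In the esophagus dry goat 73 was highest for 8 of the 9, with MX1 at 30.3 CPM against 0.239 to 14.8 and RSAD2 at 8.32 CPM against 0 to 1.06. Dry goat 64 came close to goat 73 there for ISG15 (2.12 against 2.46 CPM) and IFIH1 (7.40 against 8.89 CPM). These libraries were singled out after their values were seen, and all 3 were closest to their own tissue in overall profile.

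Only 3 libraries were highest of their tissue for 7 or more of the genes, the 3 just named. As a background, goat 6 was the highest library for 19.6% of all features that averaged 1 CPM or more in abomasum and for 19.3% of those in duodenum, and goat 73 for 11.3% of those in esophagus. The rest of the interferon response list, 31 genes with counts in these tissues, was highest in the same library for 17 genes in abomasum, 14 in duodenum and 11 in esophagus. In the abomasum of goat 6, IFIT3 stood at 16.7 CPM against 2.04 to 3.89 in the other 5 libraries, RNF213 at 43.0 against 0.454 to 9.92, and the chemokine gene CXCL10 at 11.6 against 0.227 to 2.67. Leukocyte lists did not all move along: goat 6 was highest in abomasum for 0 of 9 dendritic, 0 of 6 B and plasma cell, 2 of 8 macrophage and 3 of 9 T and NK cell genes, and for 4 of 6 endothelial, 3 of 6 fibroblast and 1 of 5 epithelial genes. In duodenum it was highest for 2 of 9 dendritic, 2 of 8 B and plasma cell, 1 of 8 macrophage, 3 of 9 T and NK cell, 0 of 6 endothelial, 2 of 6 fibroblast and 2 of 5 epithelial genes. Goat 73 in esophagus was highest for 1 of 9 dendritic, 1 of 5 B and plasma cell, 2 of 8 macrophage, 1 of 9 T and NK cell, 0 of 6 endothelial, 0 of 6 fibroblast and 3 of 5 epithelial genes. Their part in the result was not tested.

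**Figure D2:**
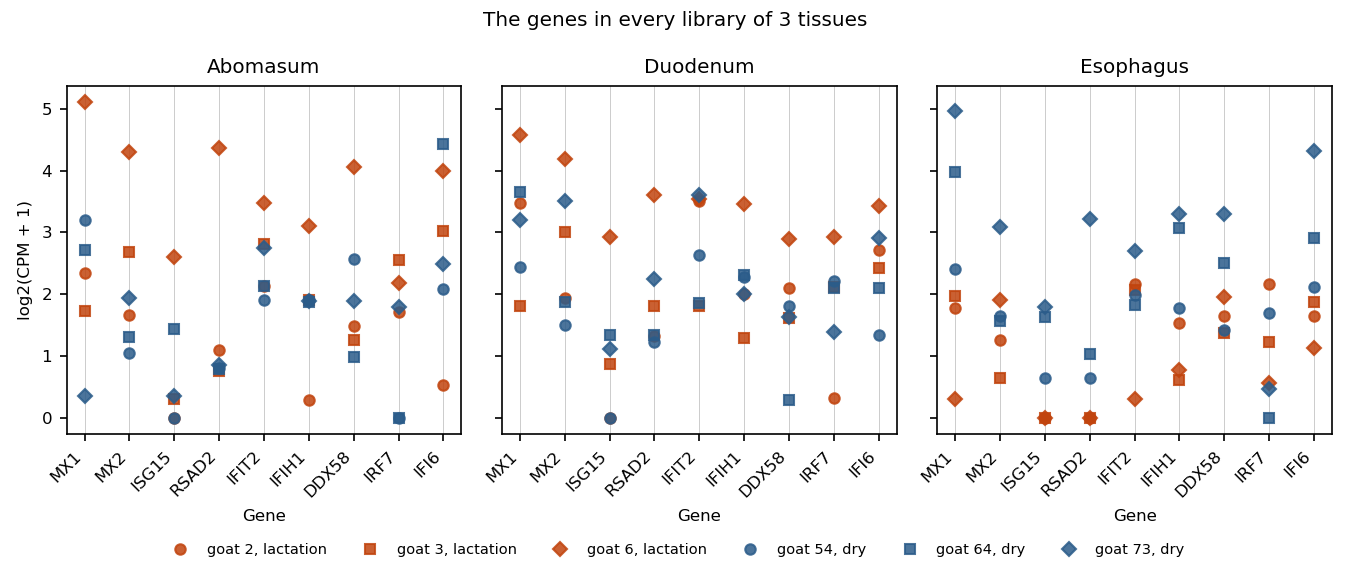
log2(CPM + 1) of the 9 genes in each of the 6 libraries of abomasum, duodenum and esophagus, with orange for lactating and blue for dry goats and a marker shape per goat. Goat 6 (orange diamonds) lies above the other libraries for 7 genes in abomasum and 8 in duodenum, and goat 73 (blue diamonds) for 8 genes in esophagus.

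The higher levels in these tissues rested on those goats. Abomasum, duodenum and esophagus each had 5 genes higher than the other tissues, where 13.8%, 15.2% and 17.5% of all features were. All 5 calls in abomasum were lost without goat 6 (adjusted p between 0.185 and 1) and that of MX2 also without goat 3, while 4 of the 5 in duodenum were lost without goat 6 (0.0668 to 0.214) and 4 of the 5 in esophagus without goat 73 (0.116 to 0.788). RSAD2 in duodenum (log2 fold change 2.32, SE 0.51, adjusted p = 0.000149) and ISG15 in esophagus (2.44, SE 0.60, adjusted p = 0.000702) stayed past the threshold without any single goat, but limma on log2 CPM did not call ISG15 there (adjusted p = 0.119). The pattern did not extend over the body of either animal. Averaged over the 9 genes and taken around each tissue's mean, goat 6 had a median of -0.06 on the log2 scale over its 33 tissues with a highest value of 1.90 in abomasum, and goat 73 a median of 0.08 with a highest value of 1.86 in esophagus.

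Lactating and dry goats were next compared within each tissue. Of 297 gene and tissue pairs, 158 had enough counts to be tested, none of them ISG15 and 5 of them RSAD2. IFI6 in kidney medulla and IRF7 in ovary were higher in lactating goats and MX1 in adrenal cortex was lower, so that 2 pairs were called higher and 1 lower, where 0.925% and 0.976% of all tests were. As shares of 158 tests, these counts are close to that background. A further 21 pairs had an unadjusted p below 0.05 and did not pass, and with adjustment over all tissues together IFI6 in kidney no longer passed (adjusted p = 0.0553).

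IFI6 in kidney medulla was at 9.51, 10.03 and 14.1 CPM in lactating goats 2, 3 and 6, against 0.195, 2.25 and 1.25 CPM in dry goats 54, 64 and 73. The lowest lactating library was above the highest dry one, and the log2 fold change was 2.79 (SE 0.62, adjusted p = 0.00955). The call held without any single goat. Of the 9 genes, 7 had the higher mean in lactating goats in this tissue and 2 the lower. MX1 (4.09 to 8.12 CPM in lactating and 2.06 to 3.03 CPM in dry goats) did not overlap either. The same was so for IFIT2 (3.57 to 11.3 and 0.892 to 2.81 CPM), and neither passed. With all tissues pooled, 13% of all tests stood apart with lactation higher. The share in kidney medulla alone is not given here, so these counts are not a result about the 9 genes. Other kidney genes moved with IFI6. SLC12A1, the salt transporter of the thick ascending limb, lay between 207 and 570 CPM in lactating and between 25.9 and 47.0 CPM in dry goats (log2 fold change 3.17, adjusted p = 0.000204), and the epithelial genes EPCAM (1.98, adjusted p = 0.000120) and KRT8 (1.97, adjusted p = 0.000431) and the endothelial gene VWF (2.81, adjusted p = 0.000421) were higher as well. Of the 6 endothelial genes, VWF and EGFL7 (1.88, adjusted p = 0.0250) passed, and KDR (-1.20, adjusted p = 0.0507), TEK (-0.10), PECAM1 (0.40) and CDH5 (0.93) did not. AQP2, the water channel of the collecting duct, did not pass (0.08, adjusted p = 0.894). Single genes of other lists were higher too. They were CD8A of T and NK cells (2.75, adjusted p = 0.0263), TCF4 of the dendritic list (1.32, adjusted p = 0.0302) and PDGFRA of fibroblasts (1.94, adjusted p = 0.00938). TAP1 of the interferon-gamma list (2.33, adjusted p = 0.0399) and the RNA sensor gene TLR7 (2.50, adjusted p = 0.0314) were also higher. Each was the only gene of its list to pass in this tissue. In that tissue 6.02% of all tested features were higher and 9.11% lower in lactating goats, and the part of this wider difference in the IFI6 value was not tested.

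IRF7 in ovary was at 7.59, 14.6 and 8.74 CPM in lactating goats and at 1.08, 0.865 and 1.67 CPM in dry goats. The groups did not overlap, with means of 10.3 ± 3.73 and 1.20 ± 0.416 CPM (SD, n = 3 each) and a log2 fold change of 2.71 (SE 0.49, adjusted p = 0.0124). Without goat 3, goat 6 or goat 64 the adjusted p was 0.0817, 0.0609 and 0.0582. The ovary libraries of the states differed widely. FOXL2, a granulosa cell factor, lay between 4.51 and 14.1 CPM in lactating and between 0 and 0.834 CPM in dry goats (adjusted p = 0.0212), while 4 of 5 epithelial genes were lower, among them EPCAM (log2 fold change -5.35, adjusted p = 0.00141) and KRT8 (-7.04, adjusted p = 0.00632). Single genes of other lists were higher along with IRF7, the macrophage gene CD68 (21.2 ± 7.70 CPM in lactating and 3.54 ± 2.33 CPM in dry goats, adjusted p = 0.0285), TCF4 of the dendritic list (14.0 ± 3.08 and 3.53 ± 1.13 CPM, adjusted p = 0.0306) and VWF (24.7 ± 4.48 and 5.99 ± 3.55 CPM, adjusted p = 0.0414), and TEK of endothelium was lower (adjusted p = 0.0491). The summed macrophage list lay between 52.5 and 79.7 CPM in lactating and between 23.8 and 45.7 CPM in dry goats. Of the 3 ovary markers set, FOXL2 was at or near 0 in the dry libraries. AMH was at 0 in all 3 of them but low in lactating goats too (0.237 to 1.75 CPM). INHA overlapped, with 0 to 1.67 CPM in lactating and 0 to 0.834 CPM in dry goats. The weak marking of the labelled tissue in the dry libraries thus rests on FOXL2. In ovary 5.71% of all features were higher and 5.97% lower, and the part of that and of these cell markers in the IRF7 value was not tested.

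MX1 in adrenal cortex was at 3.54, 2.21 and 4.30 CPM in lactating goats, against 12.1, 8.58 and 12.5 CPM in dry goats. The highest lactating library was below the lowest dry one (log2 fold change -1.93, SE 0.40, adjusted p = 0.0221). Without goat 2, 3, 54 or 73 it did not pass, with adjusted p between 0.0600 and 0.0870. STAR, the cholesterol carrier of steroid synthesis, did not separate the states here, with 399 to 623 CPM in lactating and 405 to 555 CPM in dry goats (adjusted p = 0.705). Of the marker lists of other cell types, a single gene passed, the fibroblast collagen COL3A1 (25.8 ± 3.05 CPM in lactating and 6.58 ± 2.85 CPM in dry goats, adjusted p = 0.0104), and its part in the MX1 value was not tested. Of all features tested in adrenal cortex, 2.1% were higher and 1.33% lower.

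**Figure D3:**
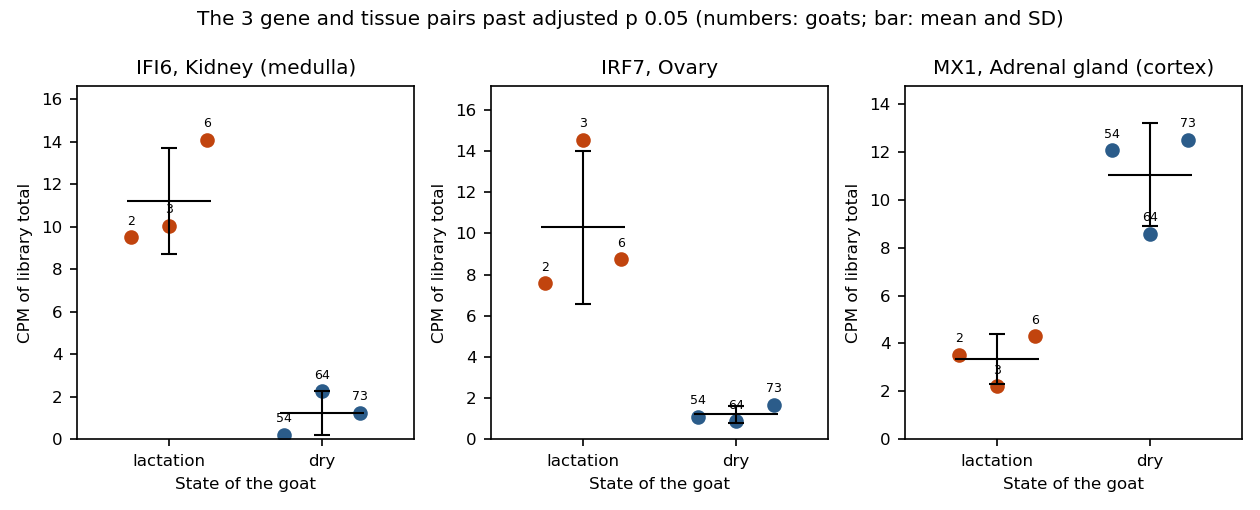
CPM in each library of the 3 gene and tissue pairs past an adjusted p of 0.05, lactating goats (orange) left of dry goats (blue), with goat numbers above the points and the mean and SD of 3 goats as bars. The groups do not overlap in any panel, with IFI6 at 9.51 CPM or more in lactating and at 2.25 CPM or less in dry goats.

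Several pairs that did not pass had states without overlap. In the mandibular lymph node MX1 was at 11.7, 8.31 and 10.1 CPM in lactating and at 19.3, 13.8 and 22.4 CPM in dry goats (log2 fold change -1.33, SE 0.34, adjusted p = 0.131). All lactating values were below all dry ones, and the adjusted p was 0.0396 with DESeq2 and 0.0220 with no filter on low counts. IFIT2 in adenohypophysis was at 6.13, 6.92 and 7.26 CPM in lactating and at 2.64, 3.35 and 1.85 CPM in dry goats (1.58, SE 0.48, adjusted p = 0.0972), but 4 of these 6 libraries were closest to another tissue. Among tested pairs 13 stood apart with lactation higher and 14 with lactation lower, where 13% and 7.45% of all features did.

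In the esophagus 3 of the 5 tested genes, MX1, IFIH1 and IFI6, were lower in every lactating than in every dry goat, where 14.8% of all tested features were. ISG15 and RSAD2, too low to test, were at 0 in all lactating and above 0 in all dry goats. Dry goat 54 had only 3 counts of each (0.561 CPM), which a count of 0 also allows, so this goat cannot be separated from the lactating goats. MX1 was at 2.42, 2.94 and 0.239 CPM in lactating and at 4.30, 14.8 and 30.3 CPM in dry goats (log2 fold change -3.45, SE 0.91, adjusted p = 0.124), and IFIH1 at 1.88, 0.534 and 0.718 CPM against 2.43, 7.40 and 8.89 CPM (-2.75, SE 0.79, adjusted p = 0.139). DESeq2 called both, and IFI6 as well (adjusted p between 0.00507 and 0.0262), and MX1 passed with no filter (0.0266) and without goat 6 (adjusted p = 0.0279). The keratin KRT4 of the squamous lining lay between 0 and 1912 CPM in lactating and between 4602 and 6956 CPM in dry goats, and the esophagus libraries of goats 3 and 6 are those closest to other tissues. The proliferation gene TOP2A was at 1.23 ± 0.652 CPM in lactating and 20.4 ± 4.70 CPM in dry goats (adjusted p = 0.0343). The part of the lining and of dividing cells in these values was not tested.

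Averaged over the 33 tissues, IRF7 was higher in lactating goats. Its mean log2 CPM was 1.23, 1.36 and 1.71 in goats 2, 3 and 6 and 1.09, 0.64 and 0.68 in goats 54, 64 and 73, a log2 fold change of 0.63 in limma (SE 0.17, 95% interval 0.25 to 1.01, adjusted p = 0.0473). The lowest lactating goat was above the highest dry goat by less than the spread within either state. IRF7 was the only one of the 9 that passed, where 4.06% of all features were higher and 4.7% lower, and it was higher by its tissue mean in 24 tissues and lower in 9. The call was lost without goat 2, 3, 6, 64 or 73 (adjusted p between 0.0507 and 0.154), with kidney medulla and ovary left out (0.0745) and when counts were summed per goat (0.159). It held with the mammary gland left out (0.0416), and without the tissues that contain a library closest to another tissue the log2 fold change was 0.89 (adjusted p = 0.00383).

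**Figure D4:**
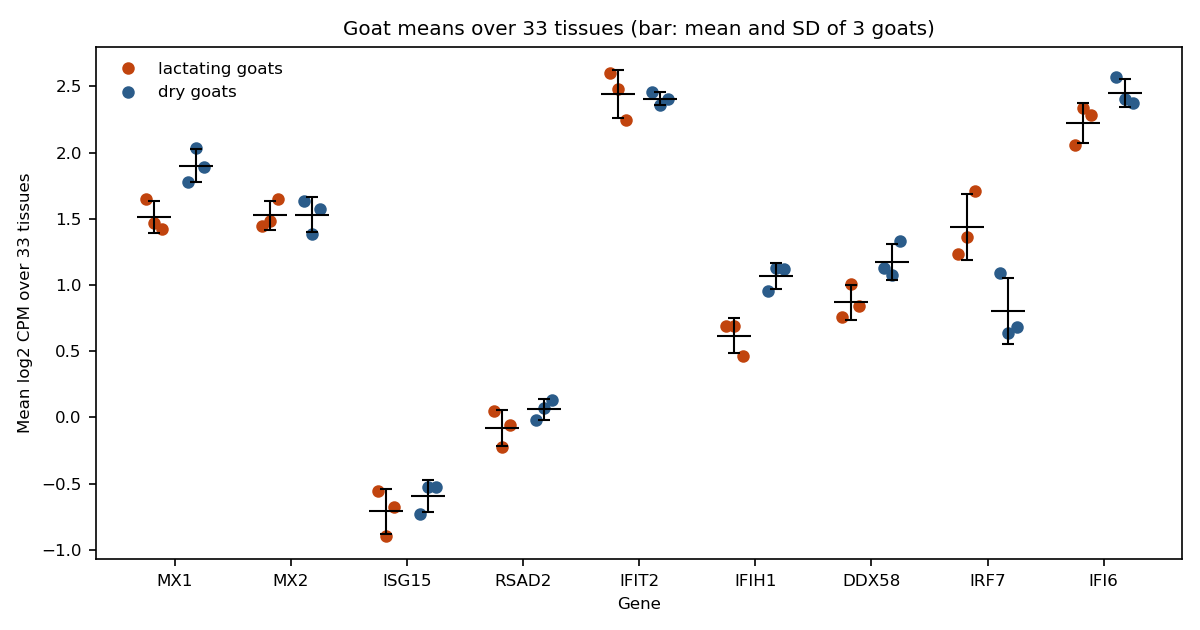
Mean log2 CPM of each gene over 33 tissues for each goat, lactating goats (orange) left of dry goats (blue), with the mean and SD of 3 goats as bars. IRF7 is the gene past the threshold, with goats at 1.23 to 1.71 in lactation and 0.64 to 1.09 when dry, and MX1, IFIH1, DDX58 and IFI6 lie lower in all lactating goats.

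The RNA sensors and MX1 lay on the other side without passing. IFIH1 had a log2 fold change of -0.45 (95% interval -0.74 to -0.17, adjusted p = 0.0553), MX1 one of -0.39 (-0.66 to -0.12, adjusted p = 0.0742), DDX58 one of -0.31 (adjusted p = 0.163) and IFI6 one of -0.22 (adjusted p = 0.222). For these 4 genes every lactating goat was below every dry goat, as was so for 19.5% of all features, and for IRF7 every lactating goat was above, as for 13.4%. With the mammary gland left out IFIH1 passed (adjusted p = 0.0358). MX2, ISG15, RSAD2 and IFIT2 had log2 fold changes between -0.14 and 0.04, with goats of the states overlapping and intervals within -0.39 and 0.28. Scaling by library totals alone moved the median of all features from -0.03 to 0.04, with 2737 features higher and 602 lower, against 1271 higher and 1472 lower with TMM scaling.

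Lactating goats had the higher IRF7 mean in tissues as unlike as spleen, diaphragm, masseter muscle and ovary, and the lower mean in the cerebellum. In spleen it was at 7.99, 5.83 and 3.94 CPM in lactating and at 2.35, 1.3 and 2.27 CPM in dry goats (log2 fold change 1.41, SE 0.59, adjusted p = 0.296). In diaphragm it was at 3.78, 2.90 and 3.25 CPM in lactating and at 0.174, 0.172 and 1.6 CPM in dry goats (2.09, SE 0.83, adjusted p = 0.203). Cerebellar libraries had 2.22, 1.58 and 1.34 CPM in lactating and 12.4, 2.91 and 5.06 CPM in dry goats (-1.86, SE 0.60, adjusted p = 0.202). The states did not overlap in any of these 3 tissues, and none of the differences passed. Of the 19 tissues where IRF7 was tested, lactation stood apart as higher in 5 and as lower in 1, where 13% and 7.45% of all tests did.

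**Figure D5:**
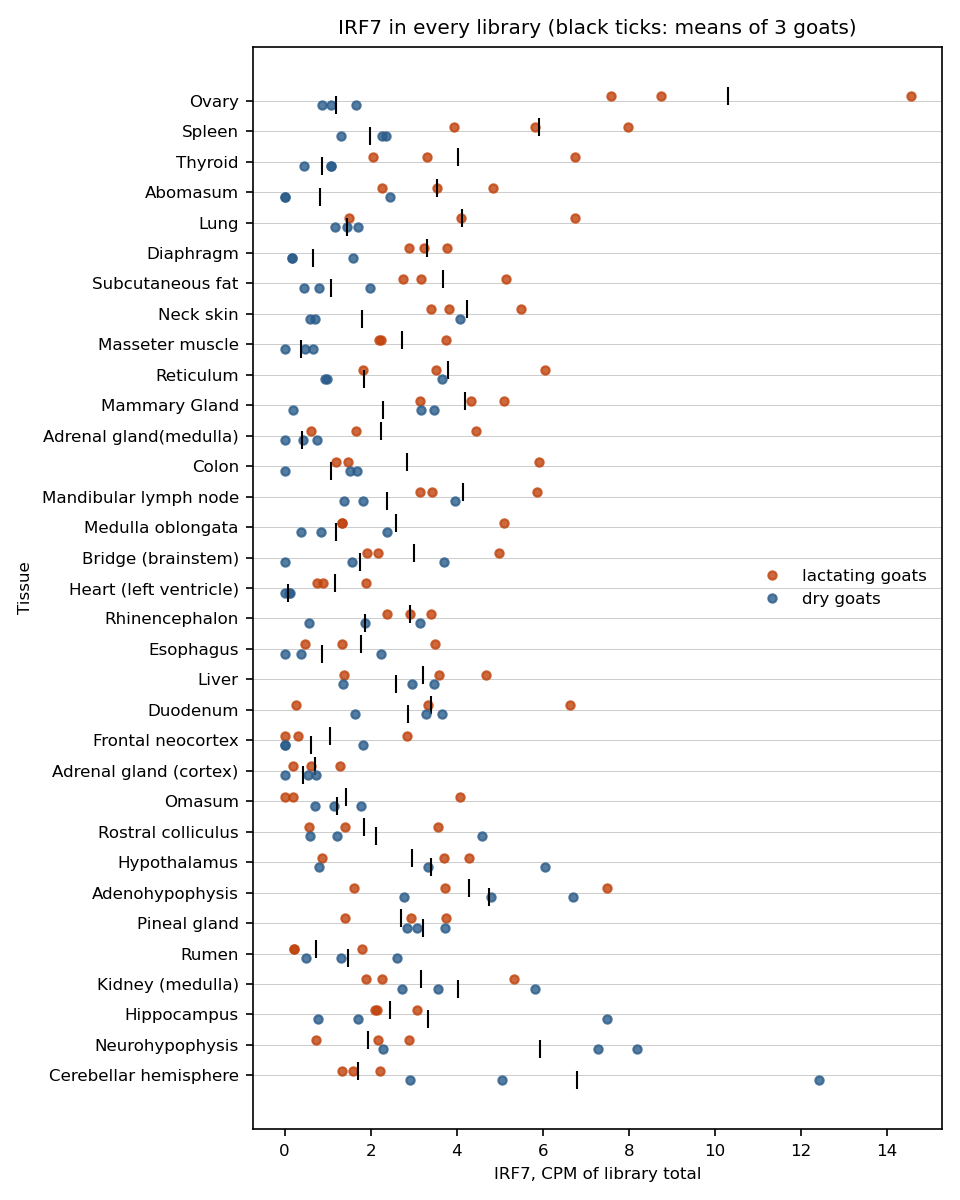
IRF7 in CPM in every library, with tissues ordered by the difference of the state means, lactating goats (orange) above dry goats (blue) in each row and black ticks for means of 3 goats. Ovary is at the top, with lactating goats at 7.59 to 14.6 CPM, and the cerebellar hemisphere at the bottom, with dry goats at 2.91 to 12.4 CPM.

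Whether the effect of state differed between a tissue and the other 32 was tested for all 297 pairs, and limma called 0 of them, with 32 at an unadjusted p below 0.05. The background of calls was 0.107% higher and 0.19% lower. On simulated counts of features above a minimum level, this test recovered 66% of those changed by 3 on the log2 scale in a single tissue. The 0 calls thus do not show that the effects were equal. IFI6 in kidney medulla came nearest, with an effect 3.03 larger on the log2 scale than over the other tissues (SE 0.63, 95% interval 1.49 to 4.57, adjusted p = 0.0579), followed by MX1 in kidney medulla (1.23, adjusted p = 0.0963) and IRF7 in ovary (1.79, adjusted p = 0.0977). In the mammary gland, where milk is made, none of the 9 genes passed or stood apart: MX1 was at 2.24, 9.33 and 1.78 CPM in lactating and at 1.02, 9.77 and 3.62 CPM in dry goats, and ISG15 was at 0 in all but dry goat 64 (1.76 CPM).

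Tissue accounted for most of the variance of MX1 and IFI6 and for little of that of IRF7. Tissue explained 62.0% of the variance of IFI6 and 54.4% of that of MX1, against a median of 48.3% over all features, and goat explained 1.34% and 2.39%, against 2.30%. For IRF7 tissue explained 24.8%, goat 11.8% and the remainder 63.4%. Of the goat part of IRF7, 70.8% lay between the states, against a median of 33.9% over all features. That share was larger for IFIH1 (84.9%) and MX1 (78.4%). It was smaller for the other genes, from 67.0% for DDX58 down to 0.0781% for MX2. Over 33 tissue means the 36 pairs of genes had Pearson r between -0.04 and 0.79 with a median of 0.50, and the highest was MX1 with ISG15. Over all libraries around their tissue means the median was 0.18, the highest 0.44 for MX1 with IFI6, and IRF7 was below 0 with 7 of the 8 others. These libraries share goats and depth, so the values are descriptions.

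Among 19752 features outside the lncRNA annotation, those most like the mean of the 9 genes around the tissue means included RNF213 (r = 0.48), B2M (0.46), M6PR (0.45) and CDC123 (0.44) over all libraries. RNF213 and B2M, the light chain of MHC class I, are themselves interferon-responsive. MX1 was most like CDC123 (0.47), IFI6 (0.44) and ATP6V1F (0.43). RSAD2 was most like MX1 (0.37), IFIH1 (0.34) and VSTM4 (0.34), and DDX58 was most like MX1 (0.35), CPNE6 (0.34) and UBE2L6 (0.34), the last an enzyme of ISG15 conjugation. The single nearest features of MX2, ISG15 and IFIT2, at r of 0.34 to 0.35, carry no gene symbol beyond a locus number. The second nearest of ISG15 was CXCL14 (0.35) and the third nearest of MX2 was ARL6IP6 (0.30). IRF7 was most like SERPIND1 (0.51), REM2 (0.49) and SLC4A11 (0.49), and none of these is on the interferon lists.

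Other genes of the pathway mostly did not separate the states over 33 tissues, and each pathway list had at most 1 call, where 4.06% of all features were called higher and 4.7% lower. At lists of this size a single call is not a result about the list. Of 30 tested interferon-stimulated genes outside the 9, limma called 0 higher and 1 lower, EPSTI1 (log2 fold change -0.45, SE 0.12, adjusted p = 0.0401), where 4 were higher and 4 lower at an unadjusted p below 0.05, and edgeR on counts summed per goat called 0. IFNK, an interferon of epithelial cells in human and the single ligand tested, was higher (0.57, SE 0.10, adjusted p = 0.00895), with goats at 4.05, 4.03 and 4.35 log2 CPM in lactation and 3.57, 3.50 and 3.65 when dry. IFNK overlaps MOB3B in the annotation, and its reads cannot be told apart from that gene's with certainty. Of 8 transcription factors 1 was higher, IRF1 (0.49, SE 0.12, adjusted p = 0.0375). Limma called 0 of the 9 receptors and kinases (2 lower at an unadjusted p below 0.05, 0 called by edgeR on summed counts) and 0 of the 14 sensors and adaptors (1 higher and 1 lower, with 2 called higher by edgeR). Of 10 negative regulators the phosphatase PTPN6 was lower (-0.52, adjusted p = 0.0275), and of 12 genes of the interferon-gamma list B2M was lower (-0.36, adjusted p = 0.0327). EdgeR on summed counts called none of the negative regulators or interferon-gamma genes. Among markers of other cells, VWF (0.64) and PECAM1 (0.49) were higher of 6 endothelial genes, and CSF1R (0.36) of 8 macrophage genes, a list whose median was -0.03. Of 8 B and plasma cell genes CR2 (-0.48) and JCHAIN (-0.92) were lower, and of 5 proliferation genes BIRC5 (-0.39). EdgeR on summed counts called no gene of either list lower, and 1 proliferation gene higher. Their part in the IRF7 value was not tested.

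Within tissues the calls on these lists were scattered. The other interferon-stimulated genes had 2 calls higher and 2 lower in 712 tests, fewer than the 0.925% and 0.976% of all tests, so the calls named here are single genes and not a result about the list. HERC5, an ISG15 ligase in human, was higher in ovary (146 ± 35.8 CPM in lactating and 58.5 ± 12.1 CPM in dry goats, log2 fold change 0.96, adjusted p = 0.0419) and in diaphragm (1.27, adjusted p = 0.0295), while EIF2AK2 (PKR) was lower in ovary and PARP9 in pineal gland. IFNK was higher in ovary, diaphragm and masseter muscle. IRF1 was higher in colon and ovary, and the nucleic acid sensor genes ZBP1 (188 ± 21.4 CPM in lactating and 34.9 ± 8.90 CPM in dry goats, 2.20, adjusted p = 0.000259) and TMEM173 (STING, 1.68, adjusted p = 0.00305) were higher in colon. In the same colon libraries the T cell gene CD2 (2.26 on the log2 scale, adjusted p = 0.00156) and the goblet cell mucin MUC2 (log2 fold change 3.27, adjusted p = 4.02e-05) were higher, and the fibroblast genes DCN (-1.99) and LUM (-2.25) were lower. The summed T and NK cell list lay between 79.3 and 92.7 CPM in lactating and between 21.0 and 38.6 CPM in dry goats, and its part in these values was not tested. TLR7, an endosomal RNA sensor, was at 0.519 ± 0.472 CPM in liver of lactating goats and at 49.3 ± 20.7 CPM in dry goats (-6.51, SE 0.61, adjusted p = 0.000800), and in kidney medulla it was higher (2.50, adjusted p = 0.0314). No call in liver was made among the 9 genes. Overlapping genes in the annotation of HERC5, IRF1 and PARP9 leave their counts uncertain, as does an antisense feature at TMEM173 and at EPSTI1.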

How the data were processed

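Total RNA of 33 tissues from 3 lactating and 3 dry goats was sequenced with a strand-specific kit, per the labels' protocols. The authors deposited expected counts per gene, of which 36.9% of values above 0 were fractional, and these were rounded for the fits. STAR, StringTie and edgeR are named in the submitters' processing notes, with no versions; the genome build and the use of strand in counting are not given in the sources used here. The deposited table of natural log offsets served as an alternative scaling, and the deposited tau, a fraction from 0 to 1, was copied. Annotated lncRNAs took 85.2% of counts. RefSeq symbols of ARS1.2 matched all 9 genes, for names and neighbours only.

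Within tissues, edgeR (version 4.0.16, in R 4.3.3) compared the states: filterByExpr with a minimum count of 10, TMM, quasi-likelihood F-test, Benjamini-Hochberg adjustment over all features of the tissue at 0.05. SEs were taken from the fold change and the F value. Over tissues, limma (version 3.58.1, eBayes with trend) tested goat means of log2 CPM (prior count 2) for 31306 features that averaged 1 CPM or more somewhere. It was also run on each goat's value in a tissue minus its mean over the other 32. Tissues were compared with edgeR over all libraries without a goat block; the same 6 goats stand behind every tissue and goat explained 2.30% of variance in the median feature, so the block was an alternative. All tests are two-sided. DESeq2 (version 1.42.0) was a further alternative. On simulated counts, the within-tissue fit recovered 4.3%, 87% and 100% of genes changed by 1, 2 and 3 on the log2 scale, among 18175, 18331 and 18260 features. These counts followed the spleen libraries, with the same spread for all features and no shifts between goats. Only features above a minimum count were changed, so recovery of genes with fewer counts or a wider spread was not simulated.

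A library's closest tissue was that with the highest Spearman correlation to its mean profile without the library. Of 99 tissue markers 90 were measured, and 75 had their own tissue among the 3 highest. All 9 genes are named; of other lists, up to 4 called genes in each direction; of genes like a member, the 3 with the highest r, or 5 for the mean. Genes of single libraries were named after their values were seen. Members, lists and tests were chosen with earlier results of these data known. Some genes that this rule would name are not reported here. Promoter motifs and sequences were not analysed here.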

Additional observations from a re-analysis of the deposited data

Results flagged for a closer look

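Of 45 gene and tissue groups of 6 libraries, the 5 tissues with the highest mean of each gene, 3 held a library that lay apart from the other 5 by more than Dixon's 95% limit on log2(CPM + 1). In groups not picked by their values, chance alone marks about 1 in 20. These groups were picked by their mean, which a single high library raises, so that share cannot be set against the 3. RSAD2 in abomasum was at 19.7 CPM in lactating goat 6, with the other 5 libraries between 0.692 and 1.14 CPM. ISG15 in adrenal medulla was at 5.35 CPM in lactating goat 2, with the others between 0 and 0.753 CPM. DDX58 in the mandibular lymph node was at 11.9 CPM in dry goat 54, with the others between 3.39 and 4.91 CPM.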

How the results depend on the processing

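Within tissues, the 2 genes called higher and 1 called lower became 2 and 4 with no filter on low counts, 2 and 5 with DESeq2, and 1 and 1 with adjustment over all tissues together. Leaving out a goat gave 1 to 2 higher and 0 to 2 lower. Library totals alone, DESeq2 size factors, the deposited offsets, totals without lncRNAs, and libraries closest to their own tissue only kept all 3 calls; with library totals alone 10788 features were higher and 5380 lower, against 5348 and 5643, while DESeq2 gave 10374 and 10723 and no filter 12585 and 13160. Over 33 tissues, 1271 features were higher and 1472 lower, against 135 and 93 with the median over tissues and 364 and 249 without goat 64. Over 33 tissues the 1 gene called higher became 0 with a prior count of 5, no filter, the median over tissues, summed counts, or without kidney medulla and ovary, and 0 to 1 when a goat was left out. The 0 called lower became 1 without the mammary gland. Directions of small values turned: MX2 (-0.01) became 0.091 with library totals alone, 0.067 with summed counts, 0.026 without kidney medulla and ovary, and ran from -0.081 to 0.047 when a goat was left out; ISG15 became 0.055 with summed counts, RSAD2 0.033 with the median, and IFIT2 (0.04) became -0.019 without tissues that hold a library closest to another tissue, -0.010 without kidney medulla and ovary, and ran from -0.031 to 0.12 when a goat was left out. The 0 calls for a tissue's own effect of state became 1 higher with library totals alone, without tissues that hold a library closest to another tissue, and without goat 73, and ranged from 0 to 1 when a goat was left out. The cause of these changes was not tested.

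For tissue against the other tissues, the replicate block, with goat as a term, gave 52 higher and 22 lower calls, against 52 and 20 without it, and 71 of the 72 calls were shared. MX2 in abomasum was the call lost (adjusted p = 0.0638). Limma on log2 CPM gave 37 higher and 33 lower with 56 shared, and leaving out a goat gave 43 to 51 higher and 12 to 18 lower. No paired analysis was possible for lactation against dry because the states share no goats. Depth limits ISG15 and RSAD2 most, which had a median of 0 and 2 counts per library, and with 3 goats in each state an exact permutation of a single value cannot give a p below 0.1. The alternative settings named after seeing the data are the deposited offsets, the libraries and tissues left out for their profile, and the omission of kidney medulla and ovary.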
